A study of Mus musculus with 6 samples.

Results

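T cell receptor alpha gene segments were read in RNA sequencing of naive CD4+ T cells, taken fresh from the mesenteric lymph node (mLN, 3 libraries) or the spleen (3 libraries). All mice in both groups were untreated wild-type C57BL6/J animals. Every row of the deposited tables whose identifier maps to a symbol starting with Trav (variable segments) or Traj (joining segments) was taken, which gave 188 of the 55487 identifiers listed. These were 128 Trav genes, 20 of them annotated as pseudogenes, and 60 Traj genes, 9 of them annotated as pseudogenes. The labels give neither the age or sex of the mice, nor how the naive cells were sorted, nor whether animals were pooled. They do not say that replicates came from separate animals, so the spread behind each p-value is that of these libraries and may be technical.

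The alpha chain of the receptor is assembled in thymocytes by joining 1 V segment to 1 J segment, and the joined exon is spliced to the constant gene Trac. Rearrangement can be repeated on the same chromosome, with later joins reaching V segments farther from the J cluster and J segments nearer Trac. Each mature cell keeps its join, so the mix of V and J segments in a naive population is a coarse view of its receptor repertoire. In the C57BL/6 genome much of the V cluster is present in several near copies, whose names carry the letter d or n.

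All members lie on the plus strand of chromosome 14 (build GRCm38). The Trav genes span chr14:52427928-53977678 and the Traj genes span chr14:54155005-54218842. By name, 55 Trav genes carry neither letter, 39 are d copies and 34 are n copies. They fall into 23 subfamilies by the number after Trav. In the annotation a Trav transcript ends with the V exon, without a J or constant part, and is between 155 and 595 nucleotides long (median 353.5). The near copies decide how a read can be assigned, so the V exons of a few are shown here, taken from GENCODE vM21. They were chosen after the counts were seen. The last 250 bases of the V exons of Trav12d-3 (chr14:52930033-52930282) and Trav12n-3 (chr14:53240995-53241244) are given first, with the codon of a conserved cysteine in capitals. They are the same letter for letter.
Trav12d-3: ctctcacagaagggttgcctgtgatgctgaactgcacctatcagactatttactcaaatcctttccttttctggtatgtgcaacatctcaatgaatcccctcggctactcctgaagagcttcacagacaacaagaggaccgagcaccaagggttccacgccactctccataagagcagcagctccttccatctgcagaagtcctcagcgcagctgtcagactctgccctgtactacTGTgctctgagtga
Trav12n-3: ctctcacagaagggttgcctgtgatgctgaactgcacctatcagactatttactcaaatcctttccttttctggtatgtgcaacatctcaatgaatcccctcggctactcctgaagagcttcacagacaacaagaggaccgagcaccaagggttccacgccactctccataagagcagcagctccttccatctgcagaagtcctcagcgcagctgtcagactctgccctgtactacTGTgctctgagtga
The corresponding stretch of Trav14d-1 (chr14:52855917-52856166), whose transcript is identical to that of Trav14n-1, can be told from that of Trav14-1 (chr14:53554309-53554558). Here the capitals mark the 11 bases that differ between them.
Trav14d-1: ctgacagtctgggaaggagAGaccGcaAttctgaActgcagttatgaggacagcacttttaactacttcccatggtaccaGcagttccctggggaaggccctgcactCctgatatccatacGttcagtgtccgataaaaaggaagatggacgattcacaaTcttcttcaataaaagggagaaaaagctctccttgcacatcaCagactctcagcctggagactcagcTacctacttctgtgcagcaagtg
Trav14-1: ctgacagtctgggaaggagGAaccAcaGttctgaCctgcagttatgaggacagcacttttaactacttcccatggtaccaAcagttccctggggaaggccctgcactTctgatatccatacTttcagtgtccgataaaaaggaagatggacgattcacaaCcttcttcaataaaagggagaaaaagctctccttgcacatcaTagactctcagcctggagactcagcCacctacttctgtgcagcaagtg
The J segments are far shorter, and 3 are shown whole. Traj18 (chr14:54200777-54200842) is the J segment of the invariant NKT cell receptor and Traj33 (chr14:54185358-54185414) that of MAIT cells, while Traj61 (chr14:54155005-54155076), an annotated pseudogene, is the longest of the 60. Capitals mark the stretch that encodes the J motif in Traj18 and Traj33, while Traj61 held no match to the motif.
Traj18: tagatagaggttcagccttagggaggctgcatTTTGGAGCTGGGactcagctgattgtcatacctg
Traj33: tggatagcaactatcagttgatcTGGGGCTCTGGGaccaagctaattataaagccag
Traj61: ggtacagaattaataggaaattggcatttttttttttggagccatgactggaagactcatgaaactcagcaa
The motif was searched as TTTGGNNNNGGN, TTCGGNNNNGGN or TGGGGNNNNGGN, where N is any base. On the coding strand 45 of the 60 Traj segments (75.0%) held a match, 36 to the first form, 7 to the second and 2 to the third. These were 44 of the 51 annotated J genes and 1 of the 9 pseudogenes, and no segment matched on the other strand.

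No J usage could be read from these tables. All 60 Traj segments were listed at 0 in all 6 libraries, Traj18 and Traj33 among them. The segments are 29 to 72 nucleotides long (median 60.75), and the deposited effective length, which is the number of positions where a fragment of the library's lengths can start, was 0 for each of them in each library. Over all rows of the tables, 6465 genes had an effective length of 0 in all 6 libraries, and 6462 of those had a count of 0. Where no fragment can start, an estimate of 0 sets no upper limit on J usage. J shares, J position and any contrast between mLN and spleen for J segments were therefore not computed.

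The libraries held between 13205499 and 20054205 expected counts in total. Cd4 averaged 889.7 ± 12.4 CPM (counts scaled for depth with TMM factors) in mLN libraries and 929.1 ± 45.1 CPM in spleen libraries, and Tcf7, a transcription factor of naive T cells, averaged 1305 ± 40.9 CPM in mLN libraries and 983.4 ± 42.3 CPM in spleen libraries (SD, n = 3 each). Markers of B cells summed to 7.12 to 10.1 CPM in mLN libraries and 21.8 to 23.3 CPM in spleen libraries, and those of myeloid cells to 10.8 to 11.7 CPM in mLN libraries and 41.8 to 43.0 CPM in spleen libraries. The T cell types that have an alpha repertoire of their own were at low levels. CD8 markers (Cd8a, Cd8b1) summed to 12.5 to 20.4 CPM in mLN libraries and 16.03 to 17.8 CPM in spleen libraries. Markers of invariant NKT and NK cells (Zbtb16, Klrb1c, Ncr1, Nkg7) summed to 0.0613 to 1.14 CPM in mLN libraries and to 1.13 to 2.44 CPM in spleen libraries. Zbtb16 was at 0 in every library except spleen replicate 2, where it was at 0.397 CPM. Mean CPM in mLN and spleen was 0.136 and 0.187 for Klrb1c, 0.0165 and 0.625 for Ncr1, and 0.348 and 0.681 for Nkg7. Regulatory T cell markers (Foxp3, Il2ra) summed to 1.23 to 2.17 CPM in mLN libraries and 2.75 to 3.24 CPM in spleen libraries. The part of such cells in the V shares was not tested.

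The summed Trav count was 2649.88, 1830 and 3261.7 in mLN replicates 1, 2 and 3, and 2596.02, 3374.47 and 2593 in spleen replicates 1, 2 and 3. It made up on average 0.0155% of all counts in mLN libraries and 0.0177% in spleen libraries. A floor of 3 counts is between 0.0889% and 0.164% of a library's Trav count, for counting error only. Of the 128 Trav genes, 85 were above 0 in all 6 libraries, 25 in 1 to 5 of them, and 18 were at 0 in all 6. Of those 18, 15 are annotated pseudogenes, and 3 have an effective length of 0. Pseudogenes took 0.368% ± 0.271 of the Trav count in mLN libraries and 0.791% ± 0.439 in spleen libraries (SD, n = 3 each).

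The level of the class as a whole changed direction with the scale it was read on. Summed Trav CPM was 162, 137 and 161 in mLN replicates 1, 2 and 3, and 183, 191 and 161 in spleen replicates 1, 2 and 3. The mLN mean was lower by 25.0 CPM (153.7 ± 14.3 in mLN and 178.7 ± 15.6 in spleen, SD, n = 3 each), and the groups overlapped (exact permutation test, two-sided, p = 0.3, where 3 against 3 libraries cannot go below 0.1). The deposited TPM values, which divide by effective length, were 1906, 1920 and 1858 in mLN replicates 1, 2 and 3, and 1790, 1764 and 1572 in spleen replicates 1, 2 and 3. On this scale every mLN library was above every spleen library, with a mean difference of 186 TPM (exact permutation test, two-sided, p = 0.1). On log2(TPM + 1) the median of all genes tested was itself 0.21 higher in mLN, and the median of the Trav genes was 0.21 higher. In bulk samples fewer cells with a transcript and less of it per cell cannot be told apart.

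Set against Trac, the constant gene spliced to the V and J join, Trav reads were on average fewer in mLN. The ratio of summed Trav counts to Trac counts was 0.308, 0.2499 and 0.294 in mLN replicates 1, 2 and 3, and 0.333, 0.341 and 0.2996 in spleen replicates 1, 2 and 3. The groups overlapped (exact permutation test, two-sided, p = 0.2), and the difference of -0.040 was -0.023 without mLN replicate 2. The same ratio of TPM values was 1.47, 1.499 and 1.43 in mLN and 1.60, 1.64 and 1.53 in spleen, without overlap (exact permutation test, two-sided, p = 0.1). Trac itself averaged 541.7 ± 12.3 CPM in mLN and 550.3 ± 11.3 CPM in spleen (SD, n = 3 each). On counts, edgeR's quasi-likelihood test did not call Trac (log2 fold change -0.02 ± 0.05 SE, adjusted p = 0.80). In TPM, Trac was at 1295, 1280 and 1296 in mLN replicates 1, 2 and 3. Its TPM was 1121, 1076 and 1027 in spleen replicates 1, 2 and 3, without overlap (exact permutation test, two-sided, p = 0.1). By TPM both Trav and Trac were therefore higher in mLN, Trac by the larger ratio.

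Fragment length differed between libraries, and 1 of them stood apart. Length minus effective length, plus 1, gives an implied mean fragment of 270, 301 and 268 nucleotides in mLN replicates 1, 2 and 3, and of 266, 261 and 271 nucleotides in spleen replicates 1, 2 and 3. mLN replicate 2 had the longest fragments, the shortest median Trav effective length (71.7 nucleotides, against 90.0 and 95.6 in the other mLN libraries and 92.1 to 98.7 in spleen) and the lowest Trav CPM. Without it the mLN minus spleen difference was -16.8 CPM. Across all genes the fold change also moved with transcript length, with a median log2 fold change of -0.46 over the 267 tested genes of up to 500 nucleotides and 0.26 over the 607 genes above 6000 nucleotides. Of the tested Trav genes 64 are in the shortest class, and its 180 genes that are not receptor or antibody segments had a median of -0.50. Among the Trav genes the 41 of up to 400 nucleotides had a median of -0.21 and the 27 longer ones a median of -0.18, a split chosen after the data were seen. The part of fragment length in the Trav level was not tested.

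**Figure D1:**
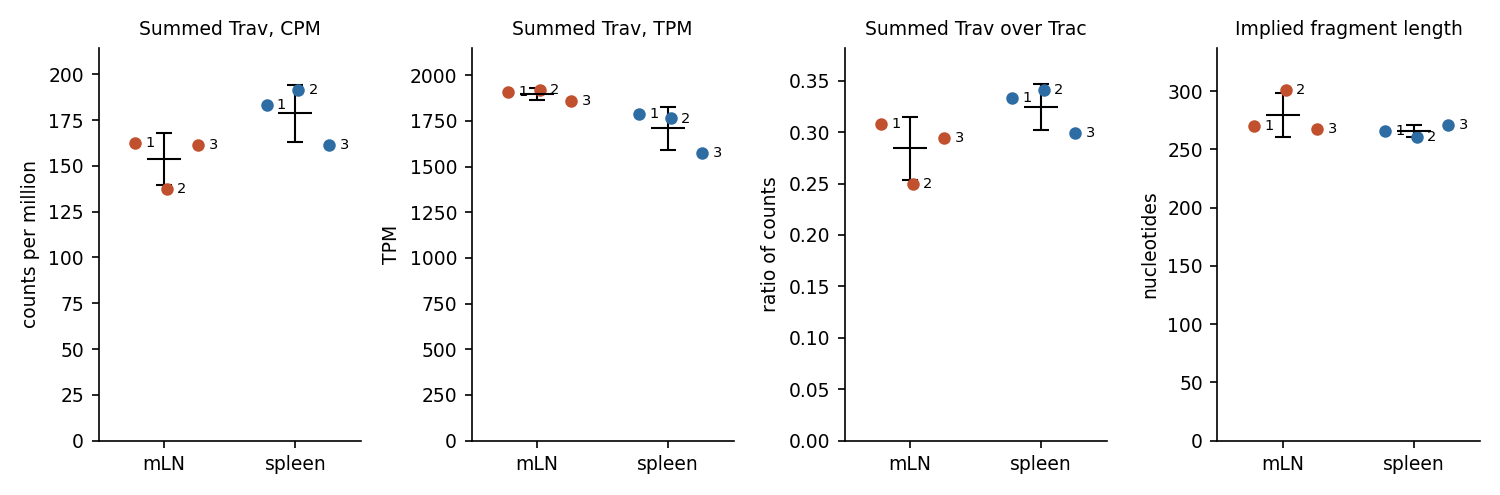
Class level in each library, with mLN at left and spleen at right in each panel: summed Trav in CPM, summed Trav in TPM, the ratio of summed Trav to Trac counts, and the implied mean fragment length in nucleotides. Numbers mark replicates, and the black marks are the mean ± SD over 3 libraries; Trav is lower on average in mLN by CPM (153.7 and 178.7) and higher by TPM, and mLN replicate 2 has the longest fragments (301 nucleotides) and the lowest CPM (137).

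No Trav gene was called as differing between mLN and spleen. Enough counts for the test across all genes were present for 68 Trav genes, which hold 92.7% of the Trav count, and none of them is a pseudogene. By edgeR's quasi-likelihood test with Benjamini-Hochberg adjustment over 12486 genes, 0 of the 68 had an adjusted p under 0.05, while 29.6% of all genes tested did. An unadjusted p under 0.05 was found for 3 of the 68, and DESeq2 likewise called 0. Their fold changes are imprecise, with a median standard error of 0.52 on the log2 scale (range 0.23 to 1.499), and 65 of the 68 lay within 2 standard errors of 0. The median log2 fold change was -0.19, with 45 genes lower and 23 higher in mLN, against -0.01 over all genes tested. CPM values of the groups did not overlap for 4 of the 68 genes (5.88%), all lower in mLN, against 41.8% of all genes tested. In these counts, genes with identical transcripts are counted separately although they share an estimate, so the distinct measurements are fewer. Trav14d-1 and Trav14n-1 are such a pair among the 4.

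Scaling each library to its summed Trav count tests the share within the class instead of the level. On that scale the median of the Trav genes was 0.015, and 0 of the 68 were called, against 25.1% of all genes tested. The median of all genes moved to 0.21 on that scale. With the log of the effective length as an offset, an alternative added after seeing the data, 0 were called against 16.8% of all genes, and the Trav median was -0.02. By limma on log2(TPM + 1), 1 Trav gene was called, against 25.2% of all genes, and without a filter on low counts 1 of 110 was called, against 18.5% of all genes.

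The 3 genes with an unadjusted p under 0.05 amount to 2 measurements, because Trav14d-1 and Trav14n-1 have the same transcript sequence and the same estimate. Trav14d-1 had 4.91, 6.60 and 5.99 CPM in mLN replicates 1, 2 and 3, and 7.70, 9.25 and 7.72 CPM in spleen replicates 1, 2 and 3. All mLN libraries were below all spleen libraries, with a log2 fold change of -0.50 ± 0.23 (SE) that missed the threshold (edgeR, adjusted p = 0.12). As a share of the Trav count the groups overlapped, at 3.85% ± 0.917 in mLN and 4.61% ± 0.357 in spleen (SD, n = 3 each). Trav10n had 0.491, 0.375 and 0.149 CPM in mLN replicates 1, 2 and 3, and 0.918, 1.76 and 0.685 CPM in spleen replicates 1, 2 and 3. It had the lowest fold change of the 68, -1.74 ± 0.75 (SE) on the log2 scale (edgeR, adjusted p = 0.085). Its expected counts are not whole numbers in any library, while those of the 3 Trav10 copies add up to whole numbers. The copies together held 112, 55 and 91 counts in mLN replicates 1, 2 and 3, and 78, 119 and 96 in spleen replicates 1, 2 and 3, which overlap.

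Trav9-2 was the gene called on TPM. It had 6.81, 5.25 and 4.95 CPM in mLN replicates 1, 2 and 3, and 3.602, 5.50 and 4.17 CPM in spleen replicates 1, 2 and 3. The CPM groups overlapped, with a log2 fold change of 0.35 ± 0.28 (SE; edgeR, adjusted p = 0.39). Its share of the Trav count was 4.19%, 3.83% and 3.07% in mLN replicates 1, 2 and 3, and 1.96%, 2.87% and 2.58% in spleen replicates 1, 2 and 3. Those shares did not overlap (exact permutation test, two-sided, p = 0.1). On log2(TPM + 1) limma gave a difference of 0.66 (adjusted p = 0.030), on a scale where the median of all genes was 0.21. Trav7n-6 was the gene called without the filter. It held 43 counts in spleen replicate 2 and 0 in the other 5 libraries, so that call rests on 1 library.

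**Figure D2:**
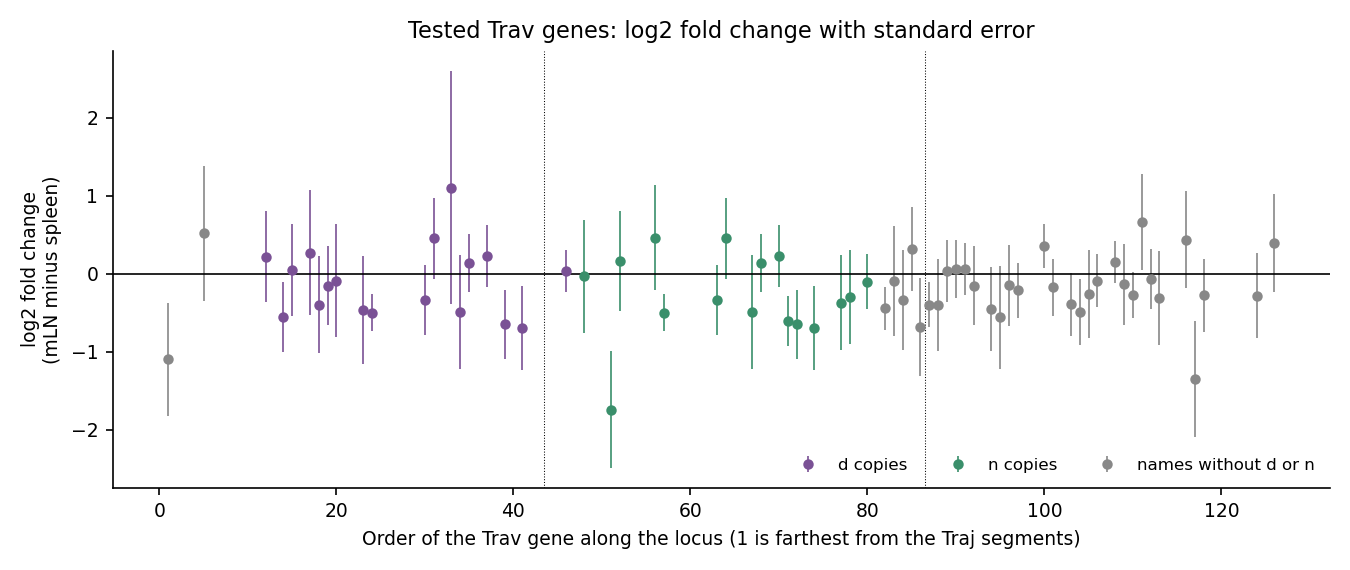
Log2 fold change (mLN minus spleen, edgeR) of the 68 tested Trav genes, with 1 standard error each way, against their order along the locus, where 1 is farthest from the Traj segments; colours give the copy and dotted lines part the locus into 3 blocks by gene number. Most genes lie within 2 standard errors of 0 (65 of 68), with 45 below and 23 above it in no visible order along the locus. Genes with identical transcripts share an estimate and are counted separately.

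The subfamilies take the copies together, so their shares do not depend on how reads were divided among copies of one subfamily. Shares are of the summed Trav count and compare organs, since a longer segment gathers more reads. Trav14, which holds the V segments of the OT-I and OT-II ovalbumin receptors, had the highest share. It took 20.9%, 24.6% and 25.0% in mLN replicates 1, 2 and 3, and 24.2%, 21.9% and 24.1% in spleen replicates 1, 2 and 3. The means were 23.5% ± 2.27 in mLN and 23.4% ± 1.29 in spleen (SD, n = 3 each), a difference well inside the spread of the libraries. The 5 highest subfamilies together held 66.7% of the Trav count and the 10 highest held 92.6%. Per effective length, as shares of TPM, Trav14 also came first (20.3% in mLN and 20.3% in spleen), followed by Trav6 (14.3% and 14.9%), Trav7 (12.7% and 13.9%) and Trav4 (9.98% and 11.7%).

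Of the 22 subfamilies with counts, 2 had shares that did not overlap between the organs (9.09%), against 36.6% of all genes tested when read over the same summed Trav count. These percentages are not alike. That scaling moved the median log2 fold change of all genes to 0.21, while Trav shares add up to the whole Trav count. Where organ labels carry no information, 3 against 3 libraries fail to overlap at a rate of 0.1, and 9.09% is near that rate. Trav9 was higher in mLN. Its share was 11.3%, 11.97% and 11.2% in mLN replicates 1, 2 and 3, and 8.78%, 10.1% and 10.1% in spleen replicates 1, 2 and 3. The means were 11.5% ± 0.435 in mLN and 9.65% ± 0.755 in spleen (SD, n = 3 each; exact permutation test over libraries, two-sided, p = 0.1). The Trav9 interval for counting error (Wilson, 95%) of mLN replicate 3, 10.1% to 12.3%, overlaps that of spleen replicate 3, 9.002% to 11.3%. Trav4 was lower in mLN. It took 8.57%, 8.09% and 8.16% in mLN replicates 1, 2 and 3, and 10.5%, 9.54% and 8.99% in spleen replicates 1, 2 and 3. Its means were 8.27% ± 0.259 in mLN and 9.68% ± 0.775 in spleen (SD, n = 3 each; exact permutation test over libraries, two-sided, p = 0.1). When only segments with a mean of at least 10 counts were kept, the Trav4 groups overlapped (exact permutation test, p = 0.2) and the Trav9 groups did not. The tests of 22 subfamilies had 0.1 as their smallest possible p, so none could pass 0.05 at this number of libraries. With 1 library left out, when groups of 2 and 3 are compared, the count of subfamilies without overlap was 5 without mLN replicate 1, 4 without mLN replicate 2, 3 without mLN replicate 3, 6 without spleen replicate 1, 5 without spleen replicate 2 and 4 without spleen replicate 3. Where organ labels carry no information, such smaller groups fail to overlap more often than 3 against 3 do. These counts are therefore not comparable with the 2 subfamilies above, and the share over all genes was not computed for them.

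All 12 subfamilies with a mean share of at least 1% had mean shares within 1.5 times of each other in the 2 organs. Of these, 6 were higher and 6 lower on average in mLN, with log2 ratios between -0.23 and 0.36. The highest ratio belonged to Trav3, at 6.87%, 9.29% and 7.82% in mLN replicates 1, 2 and 3, and 6.93%, 6.73% and 5.01% in spleen replicates 1, 2 and 3. Those values overlap, since mLN replicate 1 lies below spleen replicate 1 (exact permutation test, two-sided, p = 0.2). Next in that direction were Trav5 (1.88% ± 0.400 in mLN and 1.498% ± 0.629 in spleen), Trav9 and Trav16 (1.83% ± 0.542 in mLN and 1.63% ± 0.229 in spleen). In the other direction Trav4 came first, then Trav13 (4.07% ± 0.550 in mLN and 4.58% ± 0.8001 in spleen), Trav7 (11.3% ± 1.60 in mLN and 12.6% ± 1.14 in spleen) and Trav12 (7.91% ± 1.53 in mLN and 8.51% ± 1.34 in spleen; SD, n = 3 each). Single libraries decide the size of these differences. That of Trav3, 1.77 percentage points, was 1.118 without mLN replicate 2 and 1.16 without spleen replicate 3. That of Trav5, 0.38, was 0.15 without mLN replicate 1, 0.055 without spleen replicate 1 and 0.68 without spleen replicate 2. That of Trav16, 0.19, lay between 0.010 without mLN replicate 1 and 0.50 without mLN replicate 2, and was 0.062 without mLN replicate 3, 0.30 without spleen replicate 1 and 0.072 without spleen replicate 2. That of Trav7, -1.30, was -2.19 without mLN replicate 2, -0.63 without mLN replicate 3 and -1.96 without spleen replicate 2. Apart from Trav9 and Trav4, these shares overlapped between the organs. So did Trav6 (11.5% ± 2.38 in mLN and 11.95% ± 0.869 in spleen), Trav10 (3.34% ± 0.775 in mLN and 3.41% ± 0.363 in spleen) and Trav8 (2.95% ± 0.233 in mLN and 2.88% ± 0.789 in spleen). The other 10 subfamilies with counts (Trav15, Trav19, Trav21, Trav11, Trav1, Trav2, Trav17, Trav18, Trav20 and Trav23) each had a mean share under 1%, and Trav22 was listed at 0. The Trav13 mean was higher in mLN on the TPM scale, at 7.74% in mLN and 7.19% in spleen.

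**Figure D3:**
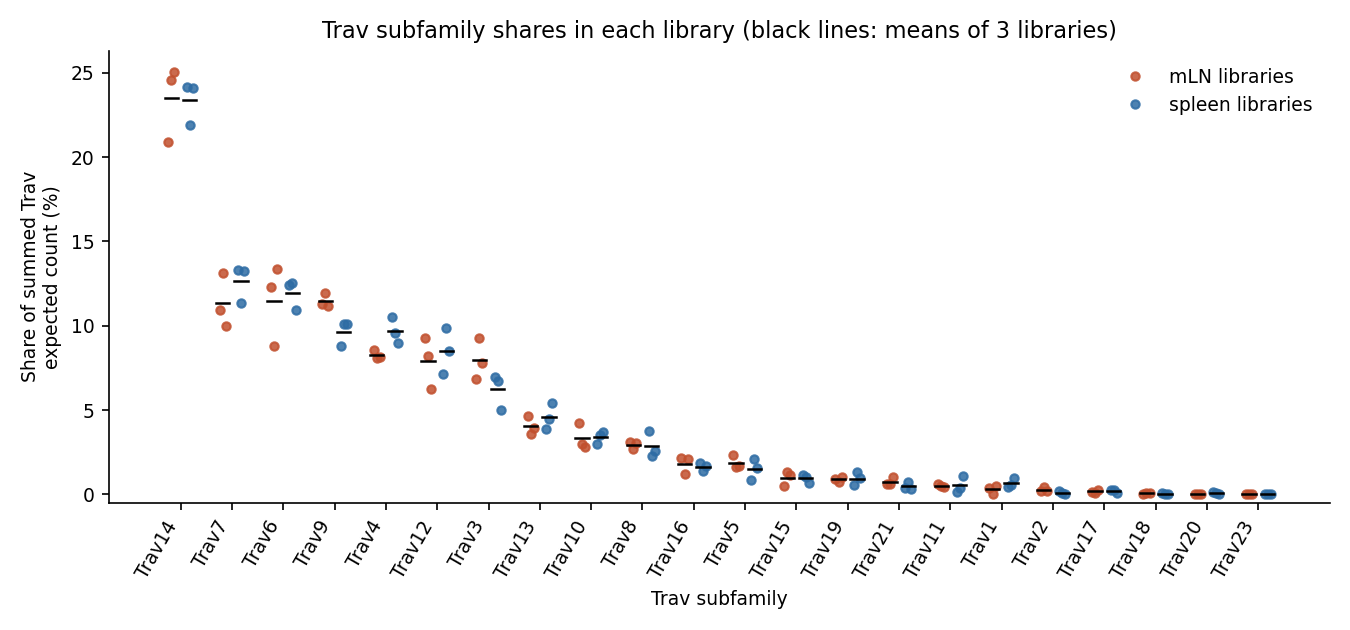
Share of the summed Trav expected count (percent) taken by each Trav subfamily in each library, mLN at left and spleen at right of each pair, with black lines for the means of 3 libraries. Trav14 is highest in both organs (23.5% in mLN and 23.4% in spleen); of the subfamilies above 1%, Trav9 and Trav4 are those whose groups do not overlap.

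V segments tied to known unconventional T cells were rare in both organs. Trav11 encodes the V segment of the invariant NKT cell receptor and its subfamily held 17, 9 and 14 counts in mLN replicates 1, 2 and 3, and 4, 13 and 29 counts in spleen replicates 1, 2 and 3. That is 0.521% ± 0.109 of the Trav count in mLN and 0.553% ± 0.503 in spleen (SD, n = 3 each), with overlap. Trav1, the V segment of the MAIT cell receptor, held 10, 1 and 17 counts in mLN replicates 1, 2 and 3, and 11, 19 and 25 counts in spleen replicates 1, 2 and 3. The Trav1 share was 0.318% ± 0.239 in mLN and 0.650% ± 0.281 in spleen (SD, n = 3 each), the groups overlapped, and edgeR did not call it (log2 fold change -1.10 ± 0.73 SE, adjusted p = 0.28). The single count of mLN replicate 2 is below the floor of 3 counts. Either V segment can also be joined to other J segments in conventional cells, and the J part was not measured. The 10 segments whose names mark shared use by the delta chain (dv) took 11.2% ± 2.85 of the Trav count in mLN and 10.8% ± 1.24 in spleen, with overlap. Beside them, Trdc, the delta constant gene, averaged 7.41 ± 1.06 CPM in mLN and 6.91 ± 2.01 CPM in spleen (SD, n = 3 each). Tcrg-C1 and Sox13, also listed as gamma delta T cell markers, were lower on average in mLN and too low to be tested. Tcrg-C1 averaged 0.0250 ± 0.0433 CPM in mLN and 0.841 ± 0.831 CPM in spleen. Sox13 averaged 0.165 ± 0.0532 CPM in mLN and 0.207 ± 0.0797 CPM in spleen (SD, n = 3 each).

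Shares by position along the locus overlapped between the organs. The Trav genes were put in order of start and divided into 3 blocks of near equal gene number. The block nearest the J cluster (42 genes, Trav7-4 to Trav23) took 47.3%, 43.0% and 43.9% of the Trav count in mLN replicates 1, 2 and 3, and 40.8%, 42.0% and 45.2% in spleen replicates 1, 2 and 3. These values overlap, with means of 44.8% ± 2.28 in mLN and 42.7% ± 2.28 in spleen (SD, n = 3 each; exact permutation test, two-sided, p = 0.4). The difference of 2.06 percentage points was 0.77 without mLN replicate 1, 1.14 without spleen replicate 1 and 3.34 without spleen replicate 3. The middle block (43 genes) took 32.0% ± 0.444 in mLN and 33.5% ± 1.499 in spleen (exact permutation test, p = 0.2), and the far block (43 genes, Trav1 to Trav8d-2) took 23.2% ± 1.99 in mLN and 23.8% ± 0.797 in spleen (exact permutation test, p = 1.0). The blocks largely follow the copies: 35 genes of the far block are d copies, 34 of the middle block are n copies, and the 42 genes nearest the J cluster carry neither letter. The 17 pairs of identical transcripts, 16 of them a d and an n copy, hold 29.8% of the Trav count. Within each pair the estimate divided the counts evenly, so for that part the d and n shares and the block shares were not measured apart. Genes without d or n took 52.1% ± 2.62 of the Trav count in mLN and 50.8% ± 1.80 in spleen, d copies 25.8% ± 2.31 in mLN and 25.4% ± 0.502 in spleen, and n copies 22.0% ± 0.735 in mLN and 23.8% ± 2.26 in spleen.

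The evenness of V usage overlapped between the organs as well. The exponential of the Shannon entropy of the shares, which gives the number of equally used genes with the same evenness, was 63.7, 60.5 and 64.2 in mLN replicates 1, 2 and 3, and 64.6, 65.9 and 63.4 in spleen replicates 1, 2 and 3. The mean difference was -1.78 genes, and the groups overlapped (exact permutation test, two-sided, p = 0.4). At the level of genes this number also counts the even division of identical copies as even use. With same-named copies merged, a grouping added after seeing the data, it was 28.9 ± 1.54 in mLN and 29.3 ± 0.711 in spleen (exact permutation test, p = 0.7). Over subfamilies it was 10.8 ± 0.410 in mLN and 10.7 ± 0.304 in spleen (SD, n = 3 each; exact permutation test, p = 0.8). In mLN replicate 2, the library with the fewest Trav counts, the value was the lowest of the 6 at the level of genes and of subfamilies.

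Taking the 22 subfamily shares of a library as its profile, mLN and spleen libraries stood about as far from each other as libraries of the same organ did. The distance is the share, in percentage points, that would have to move between subfamilies to turn one profile into the other. It ran from 4.50 to 10.3 (median 8.39) over the 9 pairs of an mLN and a spleen library, and from 7.03 to 10.2 (median 7.82) over the 6 pairs within an organ. Over genes the distances were 16.2 to 22.8 between the organs (median 18.5) and 16.9 to 23.4 within them (median 18.6). Chi-square per degree of freedom, which is near 1 where counts differ by sampling alone, was 1.57 to 5.54 over Trav subfamilies between the organs and 3.01 to 4.33 within them. Over all genes tested it was 42.4 to 73.0 between the organs and 5.59 to 11.8 within them. For the same relative difference, chi-square rises with the number of counts. The all-gene values rest on single genes and far more counts, so they are not on a like scale with those of the Trav subfamilies. The pairs share libraries, so these values are a description without a test.

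**Figure D4:**
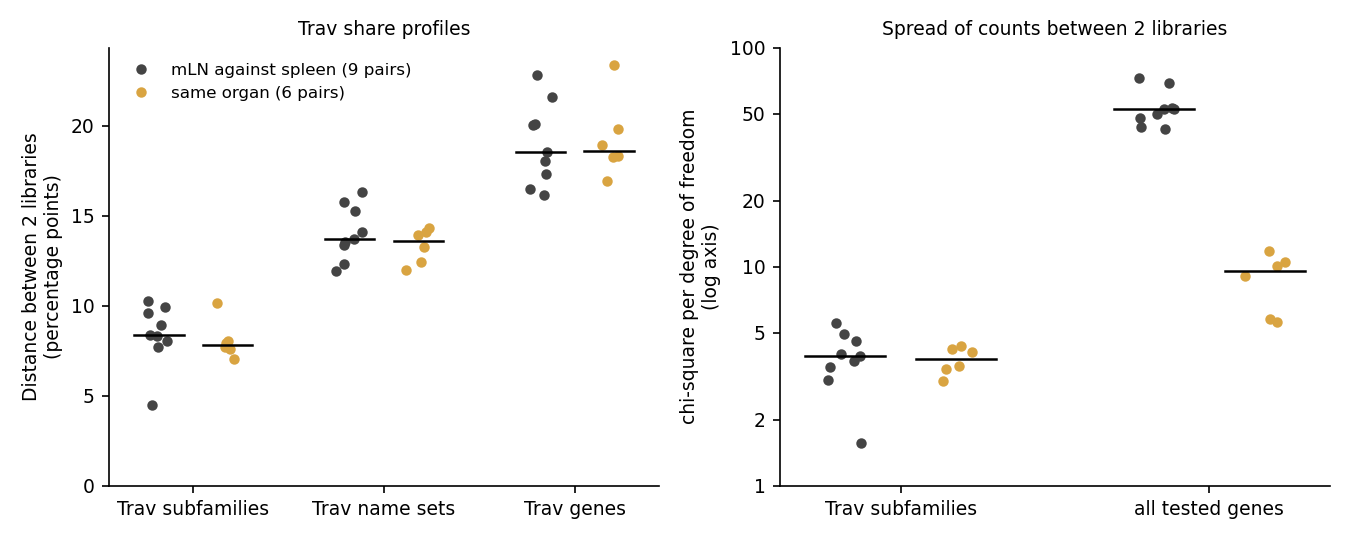
Left, distance between the Trav share profiles of 2 libraries in percentage points, over subfamilies, over sets of same-named copies and over genes; right, chi-square per degree of freedom between 2 libraries on a log axis, over Trav subfamilies and over all tested genes. Dark points are the 9 pairs of an mLN and a spleen library, yellow points the 6 pairs within an organ, and black lines medians: for Trav the pairs overlap (medians 8.39 and 7.82 over subfamilies), while for all genes they do not. The all-gene values rest on far more counts, so the chi-square values of Trav and of all genes are not on a like scale.

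Single copies could be told apart only in part. The transcripts of 34 Trav genes form 17 pairs of identical sequence, 16 of them a d and an n copy, and in each pair both genes had equal counts in all 6 libraries (15 pairs had counts). These genes hold 29.8% of the Trav count, divided evenly by the estimate rather than measured apart. A further 4 genes have transcripts that lie whole inside those of another copy. Together with the copies around them, 42 genes with 34.4% of the Trav count are identical to, lie inside or enclose another copy. The V exons of the 85 same-named pairs without identical transcripts have a median identity of 97.5% (lowest 91.4%), and 31 of the pairs differ at 5 or fewer bases.

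In 3 of the 4 nested pairs, the copies were never both above 0 in a library. Trav12d-3 (347 nucleotides) lies inside Trav12n-3 (353 nucleotides), with the V exon end printed above. Trav12d-3 had 0, 29 and 44 counts in mLN replicates 1, 2 and 3, and 24, 0 and 6 counts in spleen replicates 1, 2 and 3. Trav12n-3 had 17, 0 and 0 counts in mLN replicates 1, 2 and 3, and 0, 40 and 0 counts in spleen replicates 1, 2 and 3. In no library were both above 0. Trav12d-3 has the highest fold change of the 68 tested genes, 1.11 ± 1.499 (SE) on the log2 scale, with overlap and an adjusted p of 0.65 by edgeR. The Trav12-3 set as a whole had 85, 60 and 77 counts in mLN replicates 1, 2 and 3, and 49, 134 and 74 counts in spleen replicates 1, 2 and 3, which overlap. Likewise Trav11 (343 nucleotides) was at 0 in all 6 libraries, while Trav11d (342 nucleotides), which lies inside it, held 11, 9 and 14 counts in mLN replicates 1, 2 and 3, and 4, 9 and 22 counts in spleen replicates 1, 2 and 3. Trav7-2 (336 nucleotides) held all counts of its set, and Trav7d-2 (337 nucleotides) was at 0 throughout. The remaining nested pair did not follow this: Trav15n-1 had 1, 0 and 0 counts in mLN replicates 1, 2 and 3 and 4, 4.5 and 2 in spleen replicates 1, 2 and 3, while Trav15d-1-dv6d-1 had 1, 0 and 7 in mLN and 0, 4.5 and 2 in spleen.

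**Figure D5:**
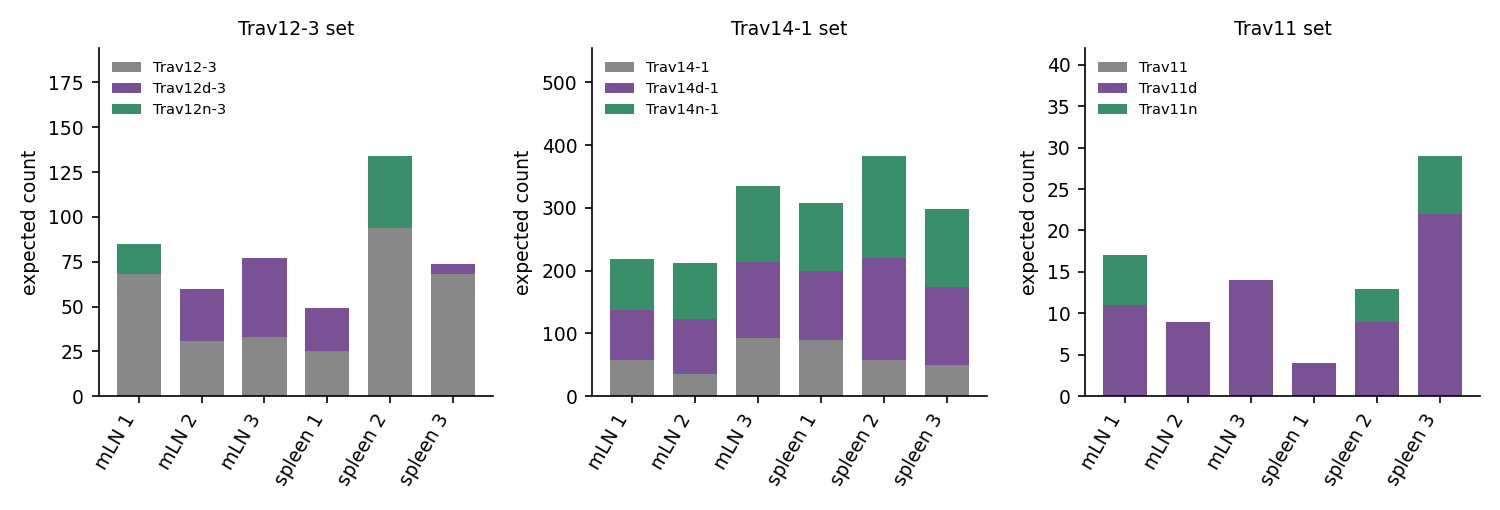
Expected counts of 3 sets of same-named copies in each library, mLN at left and spleen at right, stacked by copy. Trav12d-3 and Trav12n-3 are never both above 0 in a library, Trav14d-1 and Trav14n-1 are always equal, and Trav11 is at 0 in all 6 libraries while Trav11d holds 4 to 22 counts.

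When same-named copies were merged, a grouping added after seeing the data, 7 of 50 sets with counts (14.0%) had shares that did not overlap between the organs, against 36.6% of all genes tested over the same summed Trav count. Trav3-3 (7.47% ± 1.24 in mLN and 5.53% ± 0.688 in spleen), Trav14-2 (5.96% ± 0.239 in mLN and 4.91% ± 0.221 in spleen), Trav9-2 and Trav7-3 were higher in mLN. Trav7-2 (2.77% ± 0.189 in mLN and 3.25% ± 0.176 in spleen), Trav6-4 and Trav6-2 were lower in mLN. Trav6-2 held 0, 1 and 1 counts in mLN replicates 1, 2 and 3, and 3, 9 and 3 in spleen replicates 1, 2 and 3. Its mLN values are below the floor of 3 counts. At the level of genes 9 of 110 (8.18%) did not overlap, against the same 36.6%. Among the 9 are Trav14d-2 with Trav14n-2 and Trav4d-3 with Trav4n-3, pairs that share an estimate, so the distinct measurements are fewer. Each comparison without overlap had the smallest p that 3 against 3 libraries allow, 0.1 by exact permutation test. That is also the rate at which groups fail to overlap where organ labels carry no information, to be set beside 14.0% and 8.18%. The 36.6% is not a like yardstick here either. Of the other Trav14 sets, Trav14-1 was at 10.03% ± 1.69 in mLN and 11.6% ± 0.266 in spleen, and Trav14-3 at 7.53% ± 1.34 in mLN and 6.88% ± 1.24 in spleen (SD, n = 3 each), both with overlap.

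The remaining genes of highest share were Trav14d-3-dv8, Trav3-3, Trav4-4-dv10, Trav7-4, Trav7-2, Trav9n-4 and Trav14-1. Of them, Trav9n-4 had 3.13, 3.82 and 2.92 CPM in mLN replicates 1, 2 and 3, and 4.87, 6.35 and 3.73 CPM in spleen replicates 1, 2 and 3, which overlap (log2 fold change -0.61 ± 0.32 SE; edgeR, adjusted p = 0.16). Trav7-2 had 4.78, 3.52 and 4.51 CPM in mLN replicates 1, 2 and 3, and 6.07, 6.47 and 4.92 CPM in spleen replicates 1, 2 and 3. All its mLN values were below all its spleen values, with a log2 fold change of -0.44 ± 0.27 (SE; edgeR, adjusted p = 0.25). The other 5 had log2 fold changes between -0.40 (Trav7-4) and 0.15 (Trav3-3) and overlapping groups.

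Other genes of the receptor complex were called by the same test. Of 14 genes listed as receptor partners or recombination factors, 12 were in the tables under those symbols and 11 were tested, and edgeR called 1 higher and 5 lower in mLN, where 29.6% of all genes tested were called. Cd3e, a signalling chain of the receptor complex, was 1.28-fold higher in mLN, at 355.9 ± 20.8 CPM in mLN and 278.4 ± 7.38 CPM in spleen (SD, n = 3 each; adjusted p = 0.00013). Trbc1 and Trbc2, the beta constant genes, had ratios of 0.754 and 0.719, and the chains Cd3d, Cd3g and Cd247 had ratios of 0.701, 0.696 and 0.698 (mLN over spleen). These ratios and that of Cd3e were read from counts scaled for depth. The part of transcript length in them was not tested. Trac, Trdc, Dntt (the polymerase that adds bases at the V and J join), Rag1 and Rag2 (the recombinase) were not called, and Ptcra, the surrogate alpha chain of thymocytes, was at 0 in all 6 libraries.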

How the data were processed

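Per the submitters' processing notes, STAR and RSEM were used with mm10, and no versions are stated. Per the labels' protocols, libraries of polyadenylated RNA were made with a directional kit. Per the file headers, the deposited expected counts are gene-level RSEM estimates without normalization, and some are not whole. The deposited TPM values, scaled to a fixed total after division by effective length, and the transcript and effective lengths in nucleotides come from the same tables. The deposited FPKM values were looked at and not used in a test. All 231 member transcript identifiers are in GENCODE vM21 (GRCm38, the assembly that mm10 names), which gave coordinates and sequences. Of 55487 identifiers 55141 had a symbol.

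Expected counts were rounded, filtered with filterByExpr (12486 genes left), scaled by TMM factors and tested with edgeR's two-sided quasi-likelihood test, adjusted over all genes at 0.05. Shares used the unrounded counts. Single values were compared by exact two-sided permutation over the 20 splits of 6 libraries. A standard error is the size of the log2 fold change divided by the root of its F statistic. Simulated data were used to check the gene test, with the changed genes drawn at random from all genes tested. They give no recovery rate for Trav genes. The tools were edgeR 4.0.16, DESeq2 1.42.0 and limma 3.58.1 in R 4.3.3, and scipy 1.17.1, pandas 2.3.3, numpy 2.4.6 and matplotlib 3.10.9 in Python 3.11.15. Intervals and floors cover counting error only.

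Named are the 10 subfamilies and the 10 genes with the highest mean share, the 4 largest ratios in each direction among subfamilies of at least 1%, every gene called, and Trav11, Traj18, Trav1 and Traj33. Other genes were chosen after their values were seen. The members and lists were chosen with earlier results of these data known. Alternatives were RLE and upper-quartile factors, scaling to the summed Trav count, no filter, removal of a length trend, the replicate block, DESeq2, limma on log2(TPM + 1), TPM shares, segments with a mean of at least 10 counts, and leaving out each library. Added after seeing the data were the effective length offset and the merging of same-named copies.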

Additional observations from a re-analysis of the deposited data

How the results depend on the processing

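The count of 0 called Trav genes held under RLE and upper-quartile factors, scaling to the summed Trav count, removal of the length trend, the effective length offset, DESeq2 and each library left out (lowest 0, highest 0). It was 1 without a filter and 1 by limma on log2(TPM + 1). With the replicate block it was 0 and the Trav median was -0.19. The deviations of same-numbered libraries correlated at 0.022, 0.0023 and 0.065, so the numbers were not taken as pairs. For summed Trav CPM the replicate block gave -25.0 (sign-flip exact p = 0.5, smallest possible 0.25). Over all genes the block called 2566 higher and 2139 lower, against 2010 and 1689 without it.

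The median Trav log2 fold change of -0.19 turned to 0.015 when libraries were scaled to the summed Trav count, 0.26 with the length trend removed and 0.21 by limma on TPM. Summed Trav turned from lower by CPM to higher by TPM (186 TPM). With 1 library left out the difference was -33.7 to -16.8 CPM. The cause was not tested. The 2 subfamilies without overlap became 1 (Trav9) with segments of at least 10 counts, where Trav4 overlapped. The count was 3 to 6 with a library left out, where fewer values are compared and groups fail to overlap more often without any organ effect. The difference in effective number of genes, -1.78, was 0.34 with segments of at least 10 counts and 0.10 over subfamilies, and -2.48 to -0.62 with a library left out.

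Of 12 subfamilies, 6 had share differences that changed sign under some alternative (15 values), and no direction holds for them. With segments of at least 10 counts, Trav14 was at -0.35 and Trav8 at -0.13 percentage points, and by TPM Trav13 was at 0.55. With a library left out the ranges were -0.61 to 1.46 for Trav14, -1.40 to 0.87 for Trav6, -1.28 to 0.23 for Trav12, -0.51 to 0.20 for Trav10 and -0.23 to 0.51 for Trav8. Trav9 (1.38 to 2.04) and Trav4 (-1.76 to -0.99) kept their signs.

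Planned J results were not run, since all J counts are 0. Each library holds 1830 to 3374 Trav counts, and the median standard error of 0.52 for a single gene joins counting error and the spread between libraries.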
